A study of Mus musculus with 9 samples.

Results

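Solute carriers (Slc genes) are the largest group of membrane transporters in mammals, and the chromatin at their gene starts was compared between a mouse pancreatic alpha cell line and a mouse pancreatic beta cell line. Members were the windows of the deposited window table that the authors assigned to a protein-coding gene with a standard Slc family, subfamily letter and member number, whose centre lay within 10 kb of the gene start, leaving out 4 such genes by name. The authors named the deposited windows a peak set, so entry to the table may itself have depended on peaks in these libraries. The rule used no measured level. It gave 201 windows of 180 genes, out of 17641 windows assigned to 14964 genes. A further 22 windows of such genes lay beyond 10 kb, which made 223 windows of 191 genes at any distance. RefSeq names 360 protein-coding genes in this way for the mouse, and 169 of them had no window in the table. Just inside the limit were windows of Slc3a2 at 9713 bp, Slc7a5 at 9346 bp and Slc29a4 at 9266 bp, with mean levels of 899, 45.8 and 104.9 scaled reads in the empty-vector libraries and 1009, 61.3 and 246 in the betaTC3 libraries. Just outside were windows of Slc12a5 at 10256 bp, Slc6a19 at 10306 bp and Slc6a21 at 10753 bp, with means of 97.6, 0 and 1.78 scaled reads and of 133, 62.3 and 44.2.

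The samples were chromatin immunoprecipitation sequencing (ChIP-seq) libraries, made with an Active Motif antibody that the labels give as directed against trimethylated lysine 9 of histone H3 (H3K9me3). The labels give 3 groups of 2 libraries. The empty-vector group was alphaTC1, a murine alpha cell line, transduced with an empty vector for 5 days. The knockdown group was the same line transduced for 5 days with short hairpin RNAs against Smndc1, a gene for a splicing factor. The remaining group was betaTC3, a murine beta cell line, with no treatment. Both lines are immortal tumour-derived lines and not primary islet cells, and only alphaTC1 was transduced, so line and vector cannot be told apart in the comparison of the lines. Each group also had 1 input sample, so there were 9 samples in all. The labels do not state separate cultures for the replicates, so every p-value here measures only the spread between these samples, which may be technical.

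As background, each carrier family moves a class of small molecules across the plasma membrane or the membrane of an organelle. In islet endocrine cells they bring in amino acids that act on hormone release, shuttle metabolites between the cytosol and mitochondria, load zinc into secretory granules and set pH, chloride and calcium. Some are known for the endocrine cell type they mark. Slc38a5 is an amino acid transporter known from proliferating alpha cells, and Slc16a1, which carries lactate and pyruvate, is known as a gene that beta cells keep silent.

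The libraries labelled H3K9me3 gave windows at gene starts, where that mark is seldom found in textbook descriptions. Of the 201 Slc windows, 166 (82.6%) had their centre within 1 kb of the gene start, against 65.9% of all windows. The deposited annotation placed 142 of them inside the gene, 36 across its start, 20 upstream and 3 downstream, and 12 windows also overlapped a RefSeq promoter of another gene. What the antibody bound was not tested, so results are given as levels in the libraries labelled H3K9me3, and no statement is made on gene expression. A level is the number of reads in a window of 401 bp after the authors' scaling, called scaled reads below, and 1 read was worth between 0.799 and 1.40 scaled reads, depending on the library.

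The promoters of 6 carriers with a matched RefSeq promoter are printed here, 3 beside windows that were high in betaTC3 cells and 3 beside windows that were high in alphaTC1 cells, because they show how widely the number of CG dinucleotides varied among carriers that differed between the lines. They are not the 6 largest differences, and Slc1a2, Slc35d2, Slc38a1, Slc16a7 and Slc39a8, which differed by more than some of them, are described with their values only. Each is the 250 bases before the RefSeq start (RefSeq, GRCm38.p6), written 5′ to 3′ on the strand of the gene, with CG dinucleotides in capitals. Those of Slc18b1 (chr10:23796736-23796985, plus strand, 9 CG), Slc16a12 (chr19:34747329-34747578, minus strand, 11 CG) and Slc35f3 (chr8:126138875-126139124, plus strand, 38 CG) lay beside windows high in betaTC3 cells. Those of Slc25a13 (chr6:6217174-6217423, minus strand, 11 CG), Slc16a1 (chr3:104638414-104638663, plus strand, 37 CG) and Slc38a5 (chrX:8271131-8271380, plus strand, 8 CG) lay beside windows high in alphaTC1 cells.
Slc18b1: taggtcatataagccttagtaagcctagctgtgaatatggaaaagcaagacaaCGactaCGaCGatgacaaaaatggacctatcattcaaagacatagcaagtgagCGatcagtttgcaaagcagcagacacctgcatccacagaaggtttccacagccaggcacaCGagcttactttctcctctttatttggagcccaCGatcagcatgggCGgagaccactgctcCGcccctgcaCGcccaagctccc
Slc16a12: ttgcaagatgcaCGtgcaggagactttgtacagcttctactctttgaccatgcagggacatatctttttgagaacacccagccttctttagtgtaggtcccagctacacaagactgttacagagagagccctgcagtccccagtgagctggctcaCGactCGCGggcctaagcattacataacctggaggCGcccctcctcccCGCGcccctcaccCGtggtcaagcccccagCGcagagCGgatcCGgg
Slc35f3: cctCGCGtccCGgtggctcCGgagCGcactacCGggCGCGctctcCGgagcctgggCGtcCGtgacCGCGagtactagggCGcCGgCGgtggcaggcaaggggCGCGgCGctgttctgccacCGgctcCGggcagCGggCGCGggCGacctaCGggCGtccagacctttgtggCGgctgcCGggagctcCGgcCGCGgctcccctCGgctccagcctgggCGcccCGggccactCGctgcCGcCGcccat
Slc25a13: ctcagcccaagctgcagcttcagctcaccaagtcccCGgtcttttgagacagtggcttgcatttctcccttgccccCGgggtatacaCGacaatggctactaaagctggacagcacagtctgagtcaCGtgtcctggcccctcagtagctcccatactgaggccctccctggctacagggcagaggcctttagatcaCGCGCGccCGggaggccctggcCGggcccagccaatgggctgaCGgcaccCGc
Slc16a1: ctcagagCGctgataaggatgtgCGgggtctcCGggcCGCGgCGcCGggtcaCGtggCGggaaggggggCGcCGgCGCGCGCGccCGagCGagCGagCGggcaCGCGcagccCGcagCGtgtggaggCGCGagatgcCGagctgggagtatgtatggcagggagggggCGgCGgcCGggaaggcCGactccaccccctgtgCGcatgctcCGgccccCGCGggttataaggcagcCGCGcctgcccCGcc
Slc38a5: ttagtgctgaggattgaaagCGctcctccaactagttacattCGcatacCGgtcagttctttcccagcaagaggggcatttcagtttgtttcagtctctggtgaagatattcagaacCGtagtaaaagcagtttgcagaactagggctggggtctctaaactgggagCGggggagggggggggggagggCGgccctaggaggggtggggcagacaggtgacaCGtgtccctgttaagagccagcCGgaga

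Of the 180 carrier genes, 125 had a RefSeq promoter matched to a window. These 125 promoters held a median of 16 CG dinucleotides, with a range of 2 to 43, against a median of 6 in 129 promoters of Slc genes with no window and 6 in all 32851 promoters of the table. The median was 14 for promoters whose window was higher in betaTC3 cells (23 promoters), 15 for those lower (38) and 16.5 for those not called (64). The letters GGGCGG, the core of the GC box bound by Sp family factors, stood on either strand of 72% of the 125 promoters, 42.6% of the Slc promoters with no window and 32.7% of all promoters. TATAAA, searched in the same way, was found in 3.2% against 9.30% and 12.4%, and CACGTG, the E-box, in 16.8% against 9.30% and 6.02%. CCAAT was found at a similar rate in carrier promoters and in all promoters, 34.4% and 33.8%. GGGCGG holds a CG dinucleotide and CACGTG does too, so neither share is independent of the CG count. A match says only that the letters are present. Promoters of other genes with a window were not compared, so whether these CG counts and shares are particular to carriers was not tested.

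**Figure D1:**
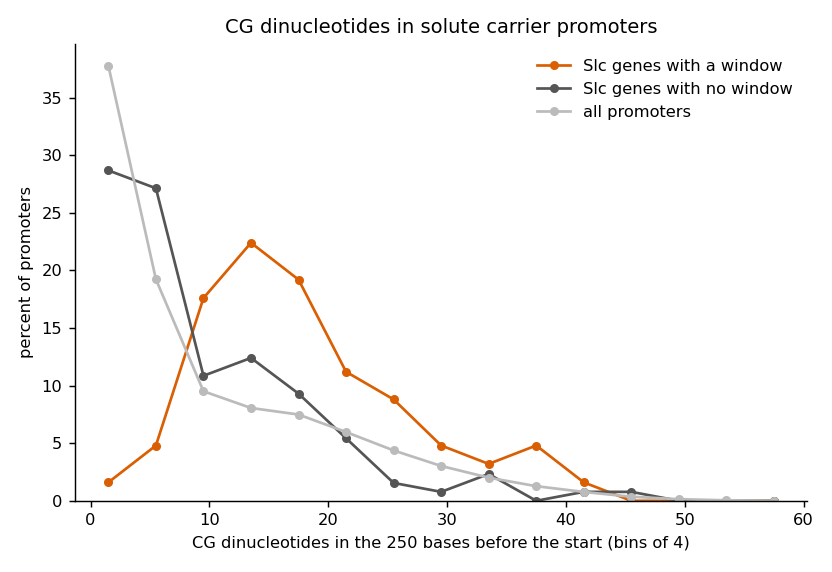
CG dinucleotides in the 250 bases before the RefSeq start (horizontal axis, bins of 4) for Slc genes with a window, Slc genes with no window and all promoters (vertical axis, percent of promoters in each set). The curve for Slc genes with a window, median 16, lies to the right of both others, median 6.

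The 6 libraries held between 4530066 and 9924487 reads in windows, and the 2 knockdown libraries were the shallowest. At marker genes of the islet cell types the lines differed in level. Of 10 windows of 6 beta cell genes, 8 were called higher in betaTC3 than in empty-vector cells and none lower. All 6 windows of 5 alpha cell genes were called lower. Of all windows 22.1% were called higher and 33.2% lower. The start of Nkx6-1, a beta cell gene, had 1068 and 1129 scaled reads in the empty-vector and 1223 and 1135 in the betaTC3 libraries. The gene start of Pdx1, a beta cell transcription factor, had between 0 and 5.30 scaled reads in the alphaTC1 libraries and 1829 and 1840 in the betaTC3 libraries, and the window of Gcg, which encodes glucagon, had between 340 and 421 against 0 in both. Among markers of other cells, both acinar and duct windows were called lower, and 1 of 2 windows of Sst was called higher. The 2 windows of Col1a1, a stromal gene, were called in opposite directions. The start of Sox9, a duct cell gene, had 465 to 601 scaled reads in alphaTC1 and 3.99 and 4.76 in betaTC3 libraries, and that of Sst, the somatostatin gene of delta cells, had 0 to 2.65 against 107 and 93.3. Whether a high level in these libraries goes with an active or a silent gene was not tested, so these levels do not settle the line labels. The part of cell type mixture in the results below was not tested. Whether Smndc1 was depleted cannot be read from these libraries.

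To ask at which carriers the lines differed, all 17641 windows were fitted together with limma on log2(scaled reads + 1), with Benjamini-Hochberg adjustment over all windows and a call at an adjusted p below 0.05. Of the 201 Slc windows, 106 were called between betaTC3 and empty-vector alphaTC1 cells, against 55.2% of all windows and 47.5% of windows within 10 kb of a protein-coding gene start. The carriers' share was therefore close to the background. Higher in betaTC3 cells were 50 windows of 48 genes (24.9%, against 22.1% of all windows), lower were 56 windows of 55 genes (27.9%, against 33.2%), and 95 were not called. Of windows within 10 kb of a protein-coding gene start, 17.9% were called higher and 29.5% lower. Both betaTC3 libraries lay above both empty-vector libraries in 71 Slc windows, against 34.1% of all windows, and below both in 90, against 48.7%. With the libraries centred on their medians the share of calls that were higher moved from 47.2% to 58.6%. It was 61.2% after centring within chromosomes, 58.3% with edgeR under TMM normalisation and 62.1% with DESeq2. Over all windows the same share moved from 39.95% to 51.8% after median centring, 52.2% after centring within chromosomes, 52.01% with edgeR under TMM and 55.6% with DESeq2. The median difference over the 201 windows was -0.09 on the log2 scale, and over all windows it was -0.13, which median centring brought to 0.05. A list of 31 carriers with known roles in islets had 24 genes with a member window, and of their 28 windows 6 were higher and 10 lower, with a median of -0.22.

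The 2 directions differed in size more than in number. Among the 50 higher windows the median log2 difference was 4.31 and 30 exceeded 3, whereas among the 56 lower windows the median was -0.90 and 7 exceeded 3 in size. The same bound was passed by 11.8% of all windows in the higher and 7.76% in the lower direction, so the asymmetry was also present over the whole table. Of the 50 higher windows, 49 were called higher under all 6 scalings tried, and 1 was not. Of the 56 lower windows 38 were called lower under all 6. None of the 106 called windows was called in the opposite direction under another scaling. Windows not called in the main test and windows of other genes were not checked in this way. In alphaTC1 cells 21 Slc windows held 3 reads or fewer in every library (10.4%, against 7.77% of all windows), and in betaTC3 cells 4 did (1.99%, against 3.87%).

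**Figure D2:**
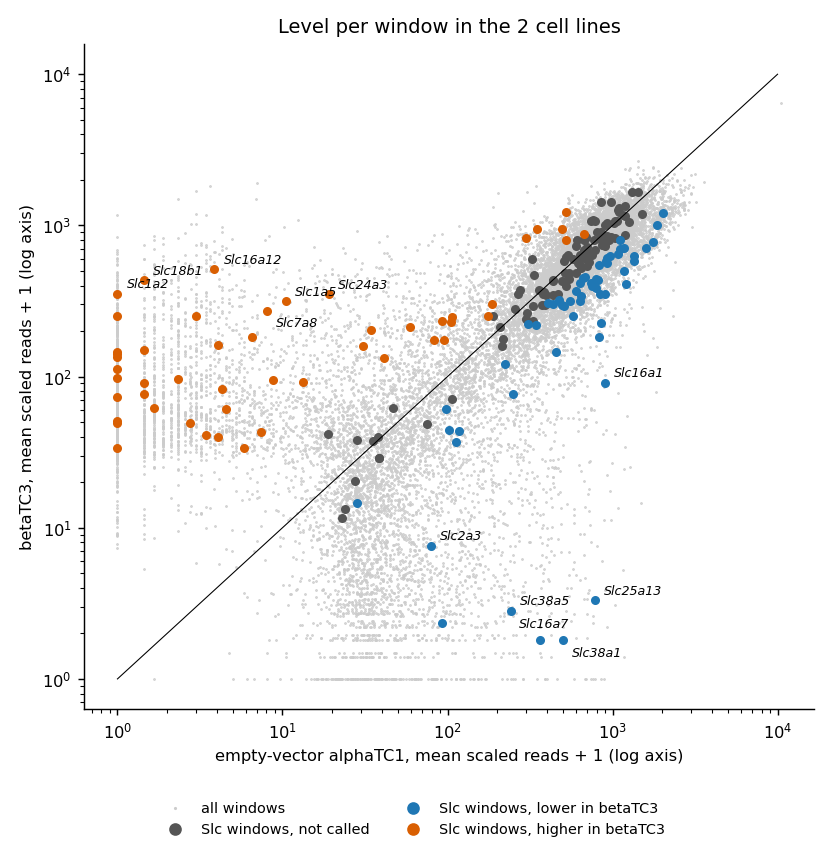
Mean scaled reads + 1 per window in empty-vector alphaTC1 (horizontal) and betaTC3 (vertical), both on log axes, for all windows (grey) and for Slc windows by call. The 50 higher Slc windows reach down to 0 scaled reads in alphaTC1 cells, whereas the 56 lower ones differ by a median of -0.90 on the log2 scale, and 4 windows sit at 3 reads or fewer in each betaTC3 library.

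The carriers were grouped into substrate classes by family. The counts of each class stand beside 22.1% of all windows called higher and 33.2% called lower, and no class was tested against other windows. For windows within 10 kb of a protein-coding gene start these shares were 17.9% and 29.5%. The 4 genes left out by name, 2 of the Slc2, 1 of the Slc30 and 1 of the Slc38 family, are in no class.

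Amino acid carriers of the plasma membrane included the windows that differed most in either direction. Of their 32 windows 8 were higher and 9 lower in betaTC3 cells, and 15 were higher and 8 lower after median centring. Slc1a2, the main glial glutamate transporter, had 0 scaled reads in all 4 alphaTC1 libraries and 369 and 336 in the betaTC3 libraries. Counted against a floor of 3 reads per library, it was at least 106-fold higher in betaTC3 cells (log2 difference 8.46 ± 0.27 SE, adjusted p = 6.30e-06). Its window, chr2:102658879-102659279, also covered the promoter of an uncharacterised RefSeq locus. Slc7a3, a cationic amino acid transporter, was likewise at 0 in all 4 alphaTC1 libraries and had 129 and 139.9 in the betaTC3 libraries, so it was at least 40.6-fold higher (7.08 ± 0.27, adjusted p = 7.08e-06).

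Slc7a8, a neutral amino acid exchanger, had 7.94 and 6.21 scaled reads in the empty-vector, 5.97 and 9.78 in the knockdown and 261 and 279.8 in the betaTC3 libraries, a 38.2-fold difference between the lines (adjusted p = 2.52e-05). Slc1a5, which brings glutamine into cells, had 1.32 and 17.8 in the empty-vector, 7.17 and 5.59 in the knockdown and 301 and 325 in the betaTC3 libraries. The empty-vector libraries differed from each other by much more than the betaTC3 libraries at Slc1a5, yet the lines did not overlap (log2 difference 5.57 ± 0.88, adjusted p = 0.00179). The call was lost without betaTC3 replicate 1 (5.62, adjusted p = 0.0587) and without betaTC3 replicate 2 (5.52, adjusted p = 0.0581). Slc7a11, the cystine-glutamate exchanger, had 45 and 35.5 in the empty-vector, 37 and 33.5 in the knockdown and 136 and 127 in the betaTC3 libraries, 3.26-fold higher in betaTC3 (adjusted p = 0.000756).

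In the other direction, Slc38a1, a sodium-coupled glutamine transporter, had 506 and 499 scaled reads in the empty-vector, 368 and 482 in the knockdown and 1.6 and 0 in the betaTC3 libraries. The betaTC3 values were 2 reads and 0 reads, and the pooled ratio was 578-fold with a 95% counting interval of 159 to 4777 (log2 difference -8.29 ± 0.44, adjusted p = 1.57e-05). Its window lay 1685 bp from the gene start. Slc38a5, the alpha cell amino acid transporter, had 232 and 250.3 in the empty-vector, 148 and 225 in the knockdown and 0.799 and 2.85 in the betaTC3 libraries, 132-fold lower in betaTC3 (-6.52 ± 0.40, adjusted p = 2.89e-05). Its window, chrX:8271876-8272276, lay inside the gene, 925 bp from its start, and the printed promoter of Slc38a5 holds few CG dinucleotides. The betaTC3 values of Slc38a5 were 1 read and 3 reads, and its fold has no counting interval.

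Slc6a15, a transporter of branched-chain amino acids, had 404 and 502 scaled reads in the empty-vector, 437 and 409 in the knockdown and 133 and 155 in the betaTC3 libraries (3.15-fold lower in betaTC3, adjusted p = 0.000210). Slc6a17, a vesicular neutral amino acid transporter, had 643 and 628 in the empty-vector, 359.5 and 469.6 in the knockdown and 318 and 308 in the betaTC3 libraries (2.03-fold lower, adjusted p = 0.00164). Slc7a2, which carries arginine and lysine, had 1033 and 1111 in the empty-vector and 631 and 659 in the betaTC3 libraries, 1.66-fold lower (log2 difference -0.73, adjusted p = 0.0133). The empty-vector and betaTC3 libraries did not overlap at these 3 genes. The call of Slc7a2 was lost without any 1 of the 4 libraries compared, with log2 differences of -0.78 to -0.68 and adjusted p of 0.0721 to 0.114. The window of Slc7a2 lay under one of the widest called peaks among the carriers, 4116 and 4505 bp in the empty-vector, 4756 and 4636 bp in the knockdown and 3149 and 3568 bp in the betaTC3 libraries.

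Several well-known amino acid carriers were high in both lines and were not called. Slc7a5, the large neutral amino acid transporter, had 1164 and 1144 scaled reads in the empty-vector and 1181 and 1152 in the betaTC3 libraries at its start (log2 difference 0.02 ± 0.15). A low window of the same gene at 5473 bp was called lower in betaTC3, with 25.2 and 29.3 in the empty-vector and 11.2 and 16.2 in the betaTC3 libraries (adjusted p = 0.0331), and lost its call in turn without empty-vector replicate 1 (adjusted p = 0.0766), empty-vector replicate 2 (0.136) and betaTC3 replicate 1 (0.134). It was also lost with DESeq2 (0.236), with edgeR under TMM normalisation (0.0668), after median centring (0.0692) and after centring within chromosomes (0.0726). The window at 9346 bp overlapped between the lines. Slc3a2, the heavy chain that pairs with Slc7a5, at its window 9713 bp from the deposited gene start, had 900.3 and 898 in the empty-vector and 1035 and 983 in the betaTC3 libraries (0.17 ± 0.13, adjusted p = 0.315). Slc7a14, a lysosomal member of the same family, had 1072 and 1079 in the empty-vector and 1342 and 1183 in the betaTC3 libraries (0.23 ± 0.15, adjusted p = 0.250). The start windows of Slc7a5 and Slc7a14 and the window of Slc3a2 were called higher after median centring, with DESeq2 and with edgeR under TMM normalisation, with log2 differences of 0.19 to 0.46.

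**Figure D3:**
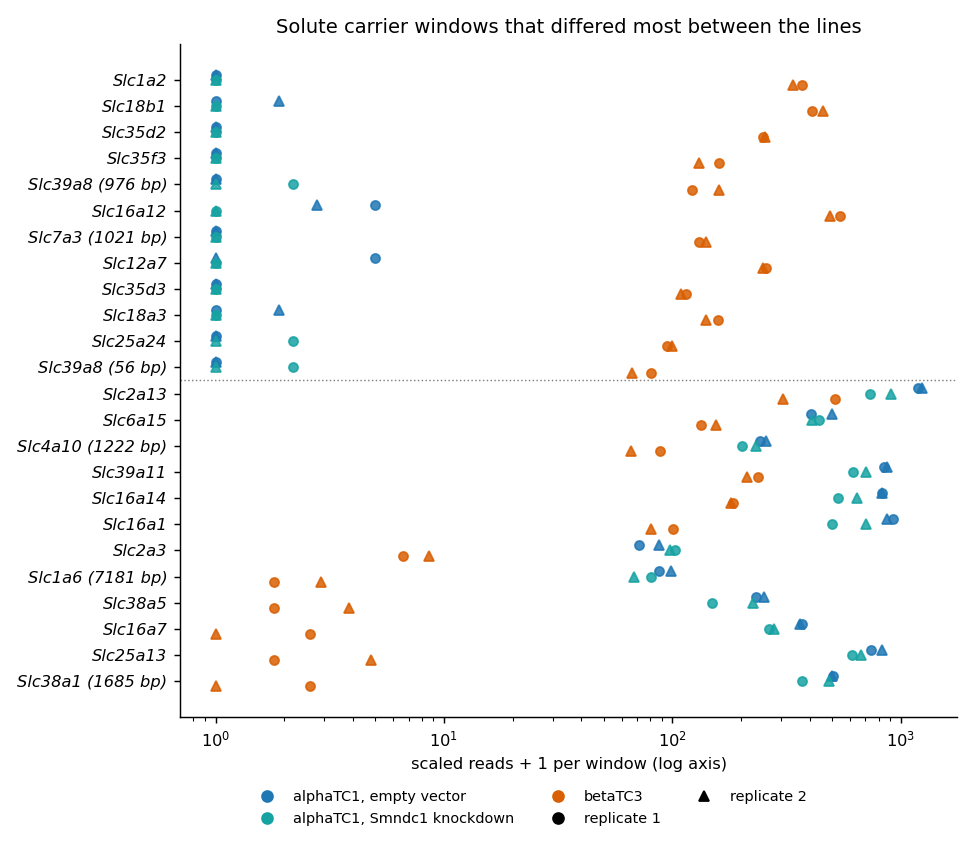
Scaled reads + 1 (log axis) in each of the 6 libraries for the 12 called Slc windows with the largest log2 difference higher in betaTC3 (above the dotted line) and the 12 lower (below), with the distance from the gene start where it exceeds 1000 bp or where a gene has 2 windows shown. Every window separates the betaTC3 libraries (orange) from all 4 alphaTC1 libraries (blue and teal), from Slc1a2 at 0 in alphaTC1 to Slc38a1 at 1.6 and 0 scaled reads in betaTC3. The windows were chosen by their difference from empty vector, so separation from those libraries is no separate support.

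Carriers of monocarboxylates had 5 of 11 windows higher and 5 lower, and 6 and 4 after centring within chromosomes. Slc16a1, the lactate and pyruvate carrier, had 925 and 870.0 scaled reads in the empty-vector, 502 and 703 in the knockdown and 99.8 and 79.9 in the betaTC3 libraries. Every alphaTC1 library was above both betaTC3 libraries, and the level was 9.99-fold lower in betaTC3 (log2 difference -3.31 ± 0.20, adjusted p = 2.59e-05). A peak was still called there in both betaTC3 libraries. Slc16a7, a second pyruvate and lactate carrier with high affinity, had 369 and 360.4 in the empty-vector, 265 and 278 in the knockdown and 1.6 and 0 in the betaTC3 libraries, and no betaTC3 peak. Its pooled ratio was 419-fold, with a counting interval of 116 to 3468 (adjusted p = 1.79e-05).

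Slc16a14, a carrier of the same family, had 823 and 824 scaled reads in the empty-vector, 530.3 and 646 in the knockdown and 183 and 179 in the betaTC3 libraries (4.55-fold lower, adjusted p = 3.17e-05). Slc16a12, which carries creatine, had the opposite pattern, with 3.97 and 1.78 in the empty-vector, 0 and 0 in the knockdown and 539 and 487 in the betaTC3 libraries. It was 179-fold higher in betaTC3 (7.11 ± 0.35, adjusted p = 1.21e-05). All alphaTC1 values of Slc16a12 lay below all betaTC3 values. The empty-vector values of Slc16a12 were 3 and 2 reads, and its fold has no counting interval.

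Of 14 windows of sugar carriers, 8 were lower in betaTC3 cells (57.1%, against 33.2% of all windows) and 3 were higher (21.4%, against 22.1%). After centring within chromosomes the counts were 5 and 5. The median difference was -0.62 on the log2 scale, against -0.13 over all windows. The class does not hold the Slc2 genes left out by name. Slc2a3, a neuronal glucose transporter, had 70.2 and 86.1 scaled reads in the empty-vector, 102 and 96.4 in the knockdown and 5.59 and 7.61 in the betaTC3 libraries (11.8-fold lower in betaTC3, -3.39 ± 0.25, adjusted p = 6.35e-05). Slc2a13, a proton-coupled myo-inositol transporter, had 1185 and 1240.2 in the empty-vector, 733 and 907 in the knockdown and 515 and 305 in the betaTC3 libraries (2.96-fold lower, adjusted p = 0.00190). No betaTC3 value reached an alphaTC1 value at either gene. The family grouping put Slc5a7, which carries choline, with the sugar carriers. Its window 9093 bp from the gene start had 90 and 97.7 in the empty-vector, 127 and 102 in the knockdown and 188 and 159 in the betaTC3 libraries (1.85-fold higher, adjusted p = 0.00749).

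Mitochondrial carriers (the Slc25 family) were the most numerous, with 33 windows of 31 genes. In betaTC3 cells 13 windows were lower (39.4%, against 33.2% of all windows) and 2 were higher (6.06%, against 22.1%), and the other scalings gave 11 to 13 lower and 3 to 5 higher. The lower share was near that of all windows, and the median difference was -0.27. Slc25a13, the aspartate-glutamate carrier known as citrin, was the exception in size, with 740.1 and 827 scaled reads in the empty-vector, 613 and 668 in the knockdown and 0.799 and 3.81 in the betaTC3 libraries. The last 2 values were 1 and 4 reads, 340-fold below the empty-vector mean (log2 difference -8.06 ± 0.43, adjusted p = 1.58e-05), at a promoter with 11 CG dinucleotides and no called betaTC3 peak. Slc25a24, a calcium-regulated ATP-magnesium and phosphate carrier, had 0 and 0 in the empty-vector, 1.19 and 0 in the knockdown and 93.4 and 99 in the betaTC3 libraries, at least 29-fold higher in betaTC3 (adjusted p = 2.98e-05).

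Slc25a10, the dicarboxylate carrier, had one of the strongest windows of all carriers, with 2032 and 1983 scaled reads in the empty-vector, 1208 and 1596 in the knockdown and 1259 and 1153 in the betaTC3 libraries. It was called 1.66-fold lower in betaTC3 (log2 difference -0.74, adjusted p = 0.0158), but leaving out any 1 of the 4 libraries ended the call (-0.80 to -0.67, adjusted p of 0.0913 to 0.122), and centring within chromosomes gave -0.10 (adjusted p = 0.347). Chromosome 11, which holds it, had a median difference of -0.73 over its 955 windows. Of the 22 Slc windows on chromosome 11, 12 were lower, Slc35b1 and Slc39a11 among them, and 4 were higher. Slc35b1 and Slc39a11 were called lower under all 6 scalings, centring within chromosomes among them. The part of a chromosome-wide shift in the calls on chromosome 11 was not tested. Slc25a3, the phosphate carrier, had 1393 and 1473 in the empty-vector and 1715 and 1619.7 in the betaTC3 libraries (0.22 ± 0.21, adjusted p = 0.415). Slc25a3 was called higher with DESeq2 (0.45, adjusted p = 0.00152), with edgeR under TMM normalisation (0.39, 0.00620) and after median centring (0.40, 0.0104). Slc25a1, the citrate carrier, had 990.3 and 972 in the empty-vector and 906 and 767 in the betaTC3 libraries (-0.23 ± 0.16), and centring within chromosomes turned its direction to 0.40 (adjusted p = 0.00604). Slc25a22, a glutamate carrier, had 481 and 505 in the empty-vector and 420.1 and 437 in the betaTC3 libraries at its start (-0.20 ± 0.16, adjusted p = 0.320), a difference that changed sign with DESeq2 (0.027) and after centring within chromosomes, where it was called higher (0.37, adjusted p = 0.0132). Its window at 2775 bp was called lower, with 489 and 521 in the empty-vector and 276 and 309 in the betaTC3 libraries (-0.79, adjusted p = 0.00206). That call was lost after centring within chromosomes (-0.22, adjusted p = 0.179).

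Anion and bicarbonate carriers (the Slc4 and Slc26 families) had 9 of 16 windows higher in betaTC3 (56.3%, against 22.1% of all windows) and 3 lower (18.8%, against 33.2%), with a median difference of 1.19. Every scaling gave 9 or 10 higher and 3 or 4 lower. Slc26a3, a chloride-bicarbonate exchanger, had 2.65 and 7.1 scaled reads in the empty-vector, 8.36 and 6.99 in the knockdown and 31.1 and 34.3 in the betaTC3 libraries at a window 6460 bp from its start (6.71-fold higher, adjusted p = 0.00188). Slc4a11, a transporter of the bicarbonate family, was at 0 in all 4 alphaTC1 libraries and had 31.9 and 33.3 in the betaTC3 libraries (at least 9.83-fold higher, adjusted p = 1.57e-05). Slc4a10, a sodium-driven bicarbonate transporter, was lower in betaTC3, with 241 and 257 in the empty-vector, 202 and 231 in the knockdown and 87 and 64.7 in the betaTC3 libraries (3.28-fold, adjusted p = 0.000367). The lines did not overlap at these genes.

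Sodium-calcium exchangers were higher in 4 of 5 windows and lower in none under all 6 scalings. Slc24a3, a potassium-dependent exchanger, had 15.9 and 20.4 scaled reads in the empty-vector, 5.97 and 28 in the knockdown and 507 and 195 in the betaTC3 libraries. The betaTC3 replicates differed by more than 2-fold, and without betaTC3 replicate 1 the call was lost (log2 difference 3.37, adjusted p = 0.0796, against 4.05 ± 0.72 and 0.00323 with all libraries). Slc8a3, a sodium-calcium exchanger of excitable cells, had 9.27 and 6.21 in the empty-vector, 2.39 and 4.19 in the knockdown and 95 and 93.3 in the betaTC3 libraries (12.2-fold higher, adjusted p = 0.000193). Slc24a2 was strong in both lines and was not called, with 804 and 885 in the empty-vector and 873 and 754 in the betaTC3 libraries (-0.06 ± 0.15, adjusted p = 0.779), and median centring turned the difference to 0.13.

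Sodium-proton exchangers and cation-chloride cotransporters were higher in 5 of 11 windows and lower in 1, and the other scalings gave 4 to 6 higher and 1 lower. Slc12a7, a potassium-chloride cotransporter, had 3.97 and 0 scaled reads in the empty-vector, 0 and 0 in the knockdown and 256 and 247 in the betaTC3 libraries. Its empty-vector reads came from 1 library, and the pooled ratio was 158-fold with a counting interval of 53.9 to 770 (adjusted p = 0.000242). Slc12a2, the sodium-potassium-chloride cotransporter that loads cells with chloride, had 575 and 512 in the empty-vector, 345 and 433 in the knockdown and 607 and 278 in the betaTC3 libraries. The betaTC3 replicates lay on either side of the empty-vector values, and the difference was not called (-0.40 ± 0.35, adjusted p = 0.368). Without betaTC3 replicate 1 it was called lower (-0.96, adjusted p = 0.0355), and without betaTC3 replicate 2 it was 0.16.

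Zinc carriers, which include the importers of the Slc39 family and the exporters of the Slc30 family, were mostly not called, with 3 of 19 windows higher and 2 lower, and 8 higher and 2 lower after median centring. Both windows of Slc39a8, a zinc and manganese importer, were among the 12 with the largest difference. The one at 976 bp had 0 and 0 scaled reads in the empty-vector, 1.19 and 0 in the knockdown and 121 and 159 in the betaTC3 libraries, and the one at 56 bp had 0 and 0 in the empty-vector, 1.19 and 0 in the knockdown and 79.9 and 65.7 in the betaTC3 libraries. The first was at least 42.1-fold higher in betaTC3 (adjusted p = 2.51e-05), and the second at least 21.9-fold higher (adjusted p = 4.15e-05). Slc39a11 was lower, with 843 and 868 in the empty-vector, 619.9 and 703 in the knockdown and 237 and 212 in the betaTC3 libraries (3.81-fold, adjusted p = 4.42e-05).

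None of the 6 Slc30 windows in the class was called. Slc30a5, a zinc transporter of the secretory pathway, had 772 and 755 scaled reads in the empty-vector, 434 and 640.1 in the knockdown and 1255 and 909.8 in the betaTC3 libraries. The betaTC3 values were above the empty-vector values but the difference did not pass (0.48 ± 0.24, adjusted p = 0.127), and it passed after median centring (0.67), with DESeq2 (0.73) and with edgeR under TMM normalisation (0.67) and under the authors' scaling (0.50). Slc30a1, the zinc exporter of the plasma membrane, had 681 and 717 in the empty-vector and 612 and 457 in the betaTC3 libraries (-0.40 ± 0.20, adjusted p = 0.142). Slc39a14, a zinc and iron importer, had 499 and 590.4 in the empty-vector and 487 and 474 in the betaTC3 libraries (-0.18 ± 0.14, adjusted p = 0.335). Slc30a1 changed sign after centring within chromosomes (0.10), and Slc39a14 with DESeq2 (0.046) and after median centring (0.0058). Centring within chromosomes made Slc39a14 a called lower window (-0.88, adjusted p = 0.000346).

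Slc39a9, a zinc transporter with one of the strongest windows, had 1321 and 1304 scaled reads in the empty-vector, 813 and 1048 in the knockdown and 1708 and 1624 in the betaTC3 libraries. The lines did not overlap there, and the difference was not called (0.34 ± 0.17, adjusted p = 0.140). It was called higher with DESeq2 (0.57, adjusted p = 1.91e-07), with edgeR under TMM normalisation (0.52, 0.000371), after median centring (0.52, 0.000717) and with only the groups compared (0.34, 0.0187). Centring within chromosomes gave -0.18 (0.0664).

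Carriers of nucleotide sugars and related substrates in the Golgi and the endoplasmic reticulum (the Slc35 family) were called higher in 3 and lower in 5 of 22 windows, and in 8 and 5 after median centring. The 3 higher ones were at 0 in all alphaTC1 libraries. Slc35d2, which brings UDP-N-acetylglucosamine into the Golgi, had 248 and 253 scaled reads in the betaTC3 libraries, Slc35f3, described as a thiamine transporter, had 159.7 and 130.4, and Slc35d3 had 113 and 108. Slc35d2 was at least 75.6-fold higher in betaTC3 (adjusted p = 6.39e-06), Slc35f3 at least 43.7-fold (adjusted p = 7.41e-06) and Slc35d3 at least 33.4-fold (adjusted p = 7.61e-06). The promoter of Slc35f3 printed above has 38 CG dinucleotides, near the top of the range.

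Slc35b1, which exchanges ATP and ADP across the endoplasmic reticulum, had 1806 and 1895 scaled reads in the empty-vector, 1313 and 1669 in the knockdown and 1009 and 1009 in the betaTC3 libraries (1.83-fold lower in betaTC3, log2 difference -0.87, adjusted p = 0.00538). Leaving out any 1 of its 4 libraries ended the call, with values of -0.91 to -0.84 and adjusted p of 0.0529 to 0.0694. Chromosome 11, which holds Slc35b1, had a median difference of -0.73 over all its windows. Slc35b1 was called lower under all 6 scalings, centring within chromosomes among them. How much of its difference came from that shift was not tested. Slc35c2 had 1708 and 1821 in the empty-vector, 1193 and 1332 in the knockdown and 795 and 760.4 in the betaTC3 libraries (2.27-fold lower, adjusted p = 0.000605). Both genes had their lowest values in the betaTC3 libraries, and both belonged to the 5 strongest carrier windows over all libraries.

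Vesicular transporters of the Slc18 family were near 0 in alphaTC1 cells. Slc18b1, which loads polyamines into vesicles, had 0 and 0.888 scaled reads in the empty-vector, 0 and 0 in the knockdown and 408 and 455 in the betaTC3 libraries at chr10:23796917-23797317. A single read was present over the 2 empty-vector libraries, and the pooled ratio was 808-fold with a counting interval of 145 to 31950 (log2 difference 8.30 ± 0.37, adjusted p = 9.40e-06). Slc18a3, the vesicular acetylcholine transporter, had 0 and 0.888 in the empty-vector, 0 and 0 in the knockdown and 158 and 139 in the betaTC3 libraries, a pooled ratio of 281-fold with an interval of 50.1 to 11134 (adjusted p = 1.79e-05). Both were higher in each betaTC3 library than in any alphaTC1 library. Intervals and floors cover counting error only.

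The remaining classes were small. Slc29a1, the main equilibrative nucleoside transporter, had 3.97 and 7.1 scaled reads in the empty-vector, 3.58 and 1.4 in the knockdown and 165 and 199.8 in the betaTC3 libraries at its annotated start (33-fold higher, adjusted p = 0.000114). Slc22a21, a mouse carnitine transporter, had 0 and 0.888 in the empty-vector, 0 and 0 in the knockdown and 62.3 and 89.5 in the betaTC3 libraries (pooled ratio 141-fold, interval 24.9 to 5583, adjusted p = 4.31e-05). At both genes the betaTC3 libraries stood well above the rest. Slc29a4, a monoamine transporter, had 219.8 and 206 in the empty-vector and 157 and 161 in the betaTC3 libraries at its start (not called, adjusted p = 0.0934, but called lower with only the groups compared, adjusted p = 0.0286), and a window 9266 bp upstream was 2.34-fold higher in betaTC3 (adjusted p = 0.00116). Slc41a1, a magnesium transporter, was 1.79-fold lower in betaTC3 (adjusted p = 0.00318), Slc44a2, a choline transporter, 1.63-fold lower (adjusted p = 0.00378) and Slc19a2, a thiamine transporter, 1.66-fold lower (log2 difference -0.74, adjusted p = 0.00630). The call of Slc19a2 was lost without empty-vector replicate 1 (-0.69, adjusted p = 0.0694), empty-vector replicate 2 (-0.78, 0.0527) and betaTC3 replicate 2 (-0.65, 0.0583), and after centring within chromosomes (-0.23, 0.0614).

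Slc49a4 was called 1.66-fold lower (adjusted p = 0.0116) and lost the call without empty-vector replicate 1 (adjusted p = 0.0898), without empty-vector replicate 2 (0.0606) and after centring within chromosomes (log2 difference -0.11, adjusted p = 0.555). Slc27a1, a fatty acid transporter, was called 1.32-fold lower (log2 difference -0.40, adjusted p = 0.0387) at a window 1978 bp from its start, and no scaling other than the deposited one with limma kept that call. It was also lost without any 1 of the 4 libraries (-0.48 to -0.33, adjusted p of 0.0531 to 0.219). Slc20a2, a phosphate transporter, had 311 and 293 scaled reads in the empty-vector and 339 and 184 in the betaTC3 libraries. These overlapped, and the difference was not called (-0.27 ± 0.28, adjusted p = 0.446). Without betaTC3 replicate 1 it was called lower (-0.71, adjusted p = 0.0387), and without betaTC3 replicate 2 it was 0.16.

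**Figure D4:**
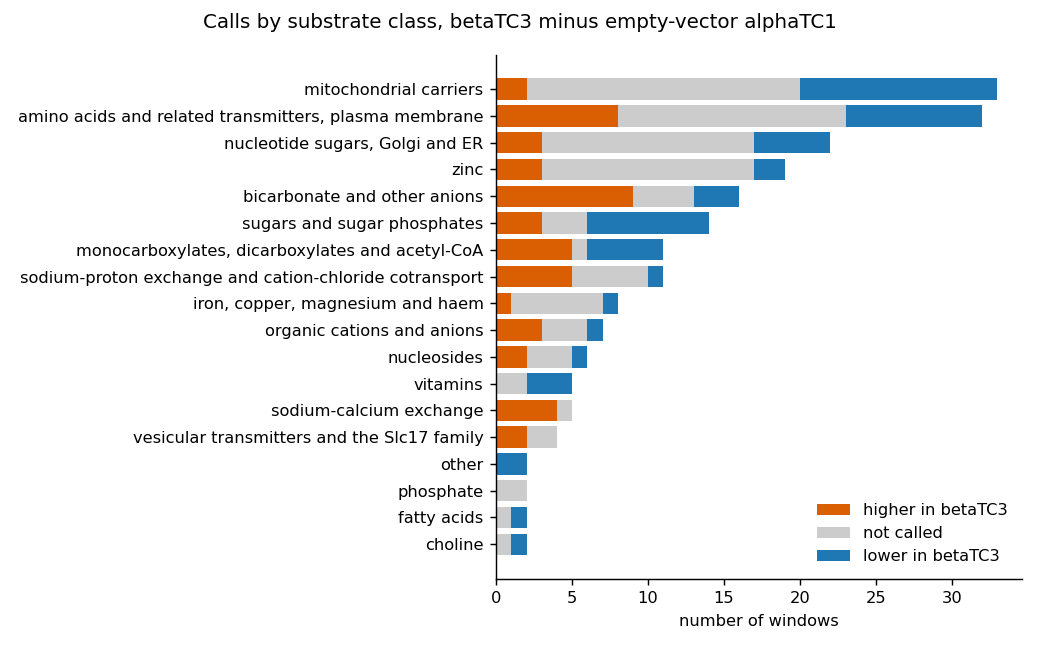
Number of Slc windows in each substrate class (horizontal axis) that were higher, lower or not called in betaTC3 against empty-vector alphaTC1 cells. The mitochondrial carriers hold 2 higher and 13 lower windows, the bicarbonate and other anion carriers 9 and 3, and the sodium-calcium exchangers 4 and 0.

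Of the 180 genes, 19 had more than 1 window, and in 2 of them the windows were called in opposite directions. At Slc29a1 the window at 123 bp was higher in betaTC3 cells, as given above, and the one at 4291 bp was lower, with 959 and 982 scaled reads in the empty-vector, 594 and 732 in the knockdown and 645 and 612 in the betaTC3 libraries (adjusted p = 0.0109). At Slc1a6, a neuronal glutamate transporter, the window at 302 bp was higher, with 82.1 and 80.8 in the empty-vector, 86 and 81.1 in the knockdown and 188 and 159.9 in the betaTC3 libraries (adjusted p = 0.00198). The window of Slc1a6 at 7181 bp was lower, with 86.1 and 97.7 in the empty-vector, 80 and 67.1 in the knockdown and 0.799 and 1.9 in the betaTC3 libraries (pooled ratio 71.4-fold, interval 24 to 350, adjusted p = 2.35e-05). Within each of these windows the empty-vector and betaTC3 libraries did not overlap, so the level of 1 window did not stand for the whole gene. These 2 genes were named because their calls differed.

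The peaks that the authors called in each library gave a second view of the same reads. A peak overlapped the window by at least 1 bp in both libraries for 163 of 201 windows in the empty-vector, 164 in the knockdown and 186 in the betaTC3 group, and in all 6 libraries for 151. With only the stronger peaks of each list (−log10 q at or above the list's median) the order turned, with 120 in the empty-vector, 114 in the knockdown and 104 in the betaTC3 group. A further 30 windows had a peak in both betaTC3 libraries and in no alphaTC1 library, and all 30 were called higher. In 9 windows the reverse held, and 7 of these were called lower. The other 2 were low windows of Slc22a5, with 31.8 and 21.3 scaled reads in the empty-vector and 12 and 26.6 in the betaTC3 libraries, and of Slc35a2, with 29.1 and 46.2 in the empty-vector and 26.4 and 29.5 in the betaTC3 libraries. A window of Slc4a2, 3117 bp from its start, was the only 1 with a peak in both empty-vector and neither knockdown library. It had 50.3 and 66.6 in the empty-vector, 28.7 and 21 in the knockdown and 175 and 246 in the betaTC3 libraries, and its knockdown difference was not called (adjusted p = 0.117). Peak calls and levels come from the same libraries and do not support each other independently. Because the windows are named a peak set, those 30 may have entered the table only through betaTC3 peaks. Their higher calls are then no separate support for a difference. These peak counts were not made over all windows, so whether they are particular to the carriers was not tested.

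To ask whether Smndc1 knockdown moved the carriers within alphaTC1 cells, the knockdown libraries were compared with the same 2 empty-vector libraries. No Slc window was called, and the background over all windows was 0%. By limma 84 of 201 Slc windows (41.8%) had an unadjusted p below 0.05, against 6169 of all windows (34.97%), and the smallest adjusted p was 0.0982 among the carriers and 0.0641 over all windows. DESeq2 called 1 (Slc35b2), and edgeR called 0 under TMM normalisation and 0 under the authors' scaling. The median difference was -0.41 on the log2 scale over the carriers and -0.37 over all windows, and 171 of 201 Slc windows (85.1%) were below 0 against 81.2% of all windows. The knockdown libraries lay below both empty-vector libraries in 144 Slc windows, against 64.6% of all windows, and above both in 5, against 6.85%. After median centring the median was -0.03 over the carriers, with 108 Slc windows below 0. The carriers thus differed from the empty vector by about as much as all windows did.

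Slc39a3, a zinc importer, had the smallest p among the carriers that were lower, with 326 and 328 scaled reads in the empty-vector and 201 and 187 in the knockdown libraries (log2 difference -0.75 ± 0.12, adjusted p = 0.0982). Slc35b2, which brings sulphate donors into the Golgi, had 1513 and 1498 in the empty-vector and 762 and 966 in the knockdown libraries (-0.81 ± 0.17, adjusted p = 0.117). The window of Slc25a22 at 2775 bp had 489 and 521 in the empty-vector and 313 and 307 in the knockdown libraries (-0.70 ± 0.13, adjusted p = 0.113). At each of these 3 windows both knockdown values were below both empty-vector values, and none passed the adjustment. The same held for Slc29a4 at 9266 bp, with 98 and 112 in the empty-vector and 62.1 and 53.1 in the knockdown libraries (-0.85 ± 0.18, adjusted p = 0.117). Slc16a12 was among the lower 5 on few reads, with 3.97 and 1.78 in the empty-vector and 0 and 0 in the knockdown libraries (adjusted p = 0.117).

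The 5 carriers with the smallest p among those that were higher were Slc25a24, Slc26a3, Slc2a3, Slc39a13 and Slc5a7. None passed the adjustment, with adjusted p of 0.259 to 0.325. Slc2a3 had 70.2 and 86.1 scaled reads in the empty-vector and 102 and 96.4 in the knockdown libraries (log2 difference 0.34 ± 0.25), and Slc5a7 had 90 and 97.7 in the empty-vector and 127 and 102 in the knockdown libraries (0.27 ± 0.19). Both knockdown values lay above both empty-vector values at these 2 genes. The other 3 rested on a few reads, and Slc39a13, for example, had 0 reads in 3 of the 4 alphaTC1 libraries and 2 reads in knockdown replicate 2 at its window 8402 bp upstream. Without knockdown replicate 2, the fit called 88 Slc windows and 6281 windows over the table. The remaining knockdown library was then assumed to vary like the other groups.

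**Figure D5:**
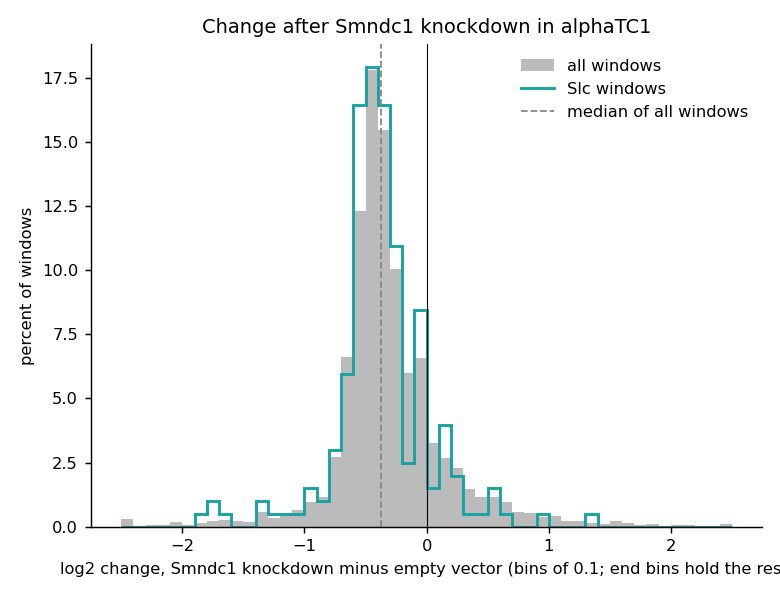
Distribution of the log2 difference between knockdown and empty-vector libraries (horizontal axis, bins of 0.1) over all windows (grey) and Slc windows (outline), in percent of windows. Both distributions peak below 0, and the medians are -0.37 for all windows and -0.41 for Slc windows.

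Between betaTC3 and knockdown alphaTC1 cells 115 Slc windows were called, 82 higher and 33 lower in betaTC3, against 60.6% of all windows called, 36.6% higher and 24% lower. Of windows within 10 kb of a protein-coding gene start 55.1% were called, 37.3% higher and 17.8% lower. This comparison shares the betaTC3 libraries with the comparison of betaTC3 and empty-vector cells, and the knockdown libraries with the comparison within alphaTC1. Both betaTC3 libraries lay above both knockdown libraries in 112 Slc windows, against 49% of all windows, and below both in 47, against 32%. The median difference was 0.33 over the carriers and 0.23 over all windows. Without betaTC3 replicate 1 the count was 71.

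In the empty-vector and knockdown groups most windows whose replicates lay far apart were low ones, whereas in the betaTC3 group most were not. Over all 201 Slc windows the median log2 ratio of replicate 1 to replicate 2 was 0.035 in the betaTC3 and -0.027 in the empty-vector group. In the knockdown group it was -0.26, and its 2 libraries held 5410817 and 6709387 scaled reads over all windows. The SD of this ratio over the Slc windows was 0.41, 0.51 and 0.41 in the same order. Replicates were more than 1.5-fold apart in 27 Slc windows in the betaTC3, 22 in the empty-vector and 17 in the knockdown group. Of 150 Slc windows with a mean of at least 100 scaled reads, 18 had betaTC3 replicates that far apart, against 3 in the empty-vector and 3 in the knockdown group. Slc24a3, Slc12a2 and Slc20a2, given above, were such windows. With the matched promoters of windows at this level split by CG count into 3 sets of 35, 35 and 36, the median log2 ratio of betaTC3 replicate 1 to replicate 2 was 0.0042 in the set with fewest CG, 0.069 in the middle set and 0.24 in the set with most. For the empty-vector replicates it was -0.054, -0.050 and 0.018. These ratios are descriptions, and the part of this replicate difference in the calls was not tested.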

How the data were processed

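The window table deposited by the authors gives 1 value per window and library, of the kind signal (normalised coverage). Every value was a whole multiple of 1 step per library (100% of values, tolerance 0.001), so whole reads were recovered and used for count models as alternatives. The derivation of these steps, and any use of the input, is not stated in the labels or headers. Peak lists, 1 per library, carry the authors' score, fold (a ratio) and −log10 values of p and q (p-value and q-value). Per the submitters' processing notes, the build was mm10 (GRCm38) and the tools included MACS2 2.2.7.1, Picard 2.19.2 and Bowtie2 2.4.1.

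The main test was limma 3.58.1 (R 4.3.3) on log2(scaled reads + 1) over all 6 libraries with an intensity trend and Benjamini-Hochberg adjustment over 17641 windows. edgeR 4.0.16 (quasi-likelihood) and DESeq2 1.42.0 were run on the recovered read counts, which are not counts that the authors deposited. The limma step was tested on simulated data. Distances ran from the window centre to the gene start in the deposited annotation. A fold was the ratio of group means, a pooled read ratio with an exact 95% interval where a group held 1 to 3 reads, or a lower bound against 3 reads per library where a group held 0.

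Windows named are the 12 largest called differences between betaTC3 and empty-vector cells in each direction, the 5 smallest p in each direction after knockdown, the 5 highest means, an islet list, and the smallest adjusted p in each class, with other windows named because of their calls, peaks or place near the distance limit. Some windows that the rule names are not reported here. The members, classes and lists were chosen with earlier results of these data known. Input samples had no column in the window table used here.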

Additional observations from a re-analysis of the deposited data

How the results depend on the processing

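The count of Slc windows called between betaTC3 and empty-vector cells stayed within 1.5 times of 106 under every alternative run, from 81 to 132, but its directions did not. The count higher, 50, was 77 with DESeq2 and 77 with edgeR TMM. Over all windows the count higher, 3893, was 6073 with DESeq2 and 6225 with edgeR TMM, so it moved over the whole table too. The median log2 difference over the carriers was -0.14 without empty-vector replicate 1 and -0.04 without empty-vector replicate 2. The count of Slc windows called was 81 when only windows within 1 kb were counted, and 96 with the nearest window of each gene. Over named windows and alternatives, 972 values kept their direction and side of the threshold, 42 lost a call, 34 gained one and 17 changed sign; no other cause than the alternative itself was tested.

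After knockdown the count of Slc windows was 0, but 1 with DESeq2, 3 with a pseudocount of 0.1 (Slc16a12, Slc22a4 and Slc39a3), and 0 to 88 with 1 library left out, the 88 without knockdown replicate 2. Over all windows it was 10 with DESeq2, 82 with edgeR under the authors' scaling, 163 without the trend, 31 with only the groups compared, 335 with a pseudocount of 0.1, and 0 to 6281 with 1 library left out. Between betaTC3 and knockdown cells it was 71 to 123 Slc windows and 6523 to 11055 of all windows with 1 library left out, the lower values without betaTC3 replicate 1, where 49 Slc windows were higher, not 82. The count lower, 33, was 53 with edgeR TMM and 53 after median centring. With only the stronger peaks of each list, 104 windows had a peak in both betaTC3 libraries, 120 in both empty-vector and 114 in both knockdown libraries, so the order of the groups turned.

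Changes of sign in betaTC3 minus empty vector were all of uncalled windows. With 1 library left out Slc12a2 ran from -0.96 to 0.16, Slc20a2 from -0.71 to 0.16, Slc24a2 from -0.16 to 0.049 and Slc7a5 at 317 bp from -0.0019 to 0.033, with the turned values without betaTC3 replicate 2 for the first 3 and without betaTC3 replicate 1 for Slc7a5. Slc24a2 became 0.17 with DESeq2, 0.099 after centring within chromosomes, 0.12 with edgeR TMM, 0.13 after median centring and 0.013 without empty-vector replicate 2. Centring within chromosomes gave 0.40 for Slc25a1, 0.37 for Slc25a22 at 439 bp, 0.10 for Slc30a1 and -0.18 for Slc39a9. DESeq2 gave 0.0099 for Slc20a2, 0.027 for Slc25a22 and 0.046 for Slc39a14 and median centring gave 0.0058 for Slc39a14. The cause was not tested.

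Replicates share only a number in the labels. Their deviations correlated at 0.085, -0.0079 and -0.18 for betaTC3 with empty vector, knockdown with empty vector and betaTC3 with knockdown. With the replicate block 103, 0 and 108 Slc windows were called, and with the crossed pairing, chosen after seeing the data, betaTC3 against knockdown gave 133 Slc windows and 11853 of all windows. With 2 libraries a group, small differences cannot be detected, and an uncalled window is not shown to be equal.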

Other observations

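Other transporter families, kept as lists beside the carriers, gave 86 windows of organic anion (Slco), ABC, Mfsd and aquaporin transporters and of P-type and V-type ATPases. In betaTC3 cells 12 were higher and 27 lower than in empty-vector alphaTC1 cells (45.3% called, against 55.2% of all windows), and none was called after knockdown by limma. The share of calls that were higher was 30.8%, and it was 46% after median centring and 51.1% after centring within chromosomes. Abca5, an ABC transporter, had 1.32 and 1.78 scaled reads in the empty-vector, 0 in both knockdown and 677 and 602 in the betaTC3 libraries (log2 difference 7.98, adjusted p = 6.39e-06). Atp2a3, a calcium pump of the endoplasmic reticulum, had 1.32 and 2.66, 0 in both, and 268 and 266 in the same order (6.52, adjusted p = 1.19e-05). Atp2b2, a calcium pump of the plasma membrane, had 993 and 994 in the empty-vector, 652 and 813 in the knockdown and 28.7 and 22.8 in the betaTC3 libraries (-5.22, adjusted p = 6.39e-06). At these 3 genes no betaTC3 value reached the alphaTC1 range. They were named after their values were seen, as the largest differences in the lists.

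Among the 129 promoters of Slc genes with no window in the table, 22 overlapped a called peak in both libraries of a group. In 20 of them the peak was present in all 6 libraries, and at Slc44a3, of the choline transporter-like family, and Slc45a3 it was present in both betaTC3 libraries and in no alphaTC1 library. Levels of these promoters were not analysed here.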
